A study of Mus musculus with 2 samples.

Results

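Mature oligodendrocytes, the cells that wrap axons of the central nervous system in myelin, were described in 2 single-cell RNA-seq libraries of adult mouse striatum. A UMI (unique molecular identifier) is 1 counted transcript. A barcode was taken as a member when it had at least 300 detected genes and at least 1 UMI for 4 or more of the 8 mature oligodendrocyte genes *Mog*, *Mobp*, *Mag*, *Opalin*, *Ermn*, *Cldn11*, *Tubb4a* and *Hapln2*. It also had less than 15% of its UMIs on genes of the mitochondrial genome and fewer than 3 of the 5 genes of newly formed oligodendrocytes *Gpr17*, *Bmp4*, *Enpp6*, *Tcf7l2* and *Itpr2*. The members were thus chosen by measured values, and what is given below on these genes and on the mitochondrial share is a description without a test. Of 12415 barcodes in all, 2311 were members: 1352 of the 6898 barcodes of library 1 with 300 or more genes (19.6%, exact binomial 95% interval 18.7 to 20.6) and 959 of 5364 in library 2 (17.9%, 16.9 to 18.9).

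The study prepared cells of the whole striatum, where an astrocyte population that carries *Crym* (μ-crystallin) was its subject, with a dissociation that enriches glia. The labels give 1 condition with 2 replicate libraries: untreated mice aged 8 to 10 weeks, of strain C57/Bl6J in the sample fields and of strain C57BL/6NTac in the protocol text, and the study's methods give male mice of a somewhat younger age range than the labels. Library 1 held 6978 barcodes with 44597660 UMIs and library 2 held 5437 with 37982720, and the labels do not say how many mice went into a library or which of the 3′ kit versions it used. The study's methods name more mice than there are libraries here, and no source ties a library to its mice, so that a library may hold cells of more than 1 animal. Dissociation used pronase, a 20-µm filter and a step that removes myelin debris, so the members are the oligodendrocytes that came through these steps.

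Members were compared with 3 other groups drawn from the same 2 suspensions on other values of the same genes. Oligodendrocytes with a high mitochondrial share met the same marker rule with 15% or more mitochondrial UMIs (345 barcodes in library 1 and 225 in library 2). Newly formed oligodendrocytes had 3 or more of the 5 genes named above (128 and 127), and oligodendrocyte precursor cells (OPCs) had 4 or more of 8 precursor genes (92 and 136). The last 2 groups were also required to hold fewer than 4 markers of each class outside the lineage, whereas the members were not. Throughout, pairs of values stand for library 1 and library 2 in that order, and CPM is the level of a gene in the summed barcodes of a group, its UMIs scaled so that all nuclear-encoded genes together make 1e6.

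Oligodendrocytes arise from OPCs through a short-lived committed stage, and then express the proteins and lipids of compact myelin for as long as the sheath is kept. Their membranes hold unusual amounts of cholesterol and galactolipids, their cytoplasm stores iron, and their processes pass metabolites to the axon through monocarboxylate transporters and connexin channels. Mature cells are also known to differ among themselves, with *Klk6* and *Hapln2* marking some cells, and *Ptgds*, *Il33* and *Car2* others, in many regions of the mouse brain.

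The label of a mature oligodendrocyte held for the members with 7 or 8 of the 8 markers, and not for most of those with 4 to 6. In library 1, 424, 172, 68, 215 and 473 members carried 4, 5, 6, 7 and 8 markers, and in library 2 the numbers were 53, 28, 13, 213 and 652. *Mbp*, myelin basic protein, which is not part of the rule, stood at 315, 589, 1651, 5656 and 5534 CPM in these 5 steps of library 1 and at 197, 1199, 1570, 4775 and 4647 CPM in library 2. The level in barcodes with 4 markers was near the 334 and 119 CPM of astrocytes, and it was more than an order of magnitude higher once 7 markers were present. The share of members that also held 4 or more markers of a class outside the lineage moved the other way, from 84.4% and 94.3% with 4 markers to 34.9% and 14.7% with 8. The 2 libraries differed in this respect, with 664 of 1352 members of library 1 and 94 of 959 of library 2 in the range from 4 to 6 markers. For this reason the main results below are also given for the 688 and 865 members with 7 or 8 markers, a limit chosen after these values were seen. It was put on the members alone, and the groups they were compared with stayed as they were.

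**Figure D1:**
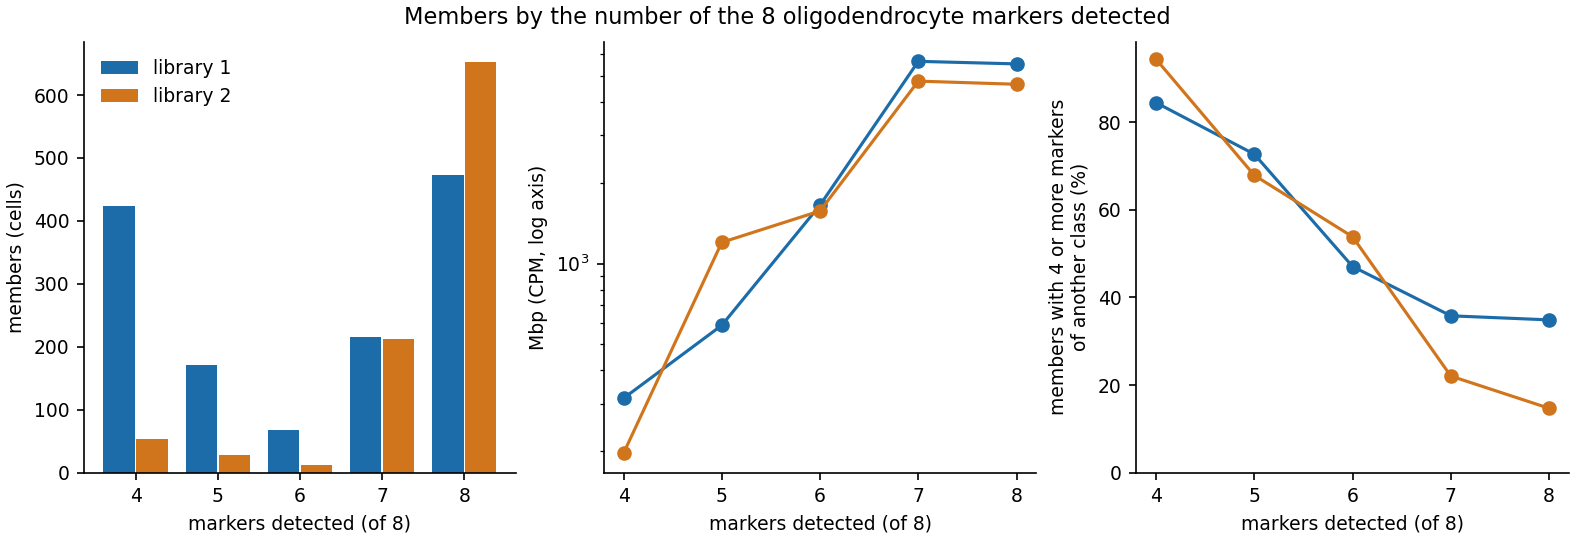
Members by the number of the 8 oligodendrocyte markers they carry (x axis), in library 1 and library 2. The panels show the number of members, the *Mbp* level in CPM on a log axis, and the percentage of members that also hold 4 or more markers of a class outside the lineage, which falls from 84.4% and 94.3% at 4 markers to 34.9% and 14.7% at 8.

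As a group, members with 4 to 6 markers carried transcripts of several other classes. In library 1, 202 of the 664 held 4 or more microglial markers, 159 held as many astrocyte markers and 148 as many neuroblast markers. Their 8 microglial markers summed to 12141 and 11397 CPM, whereas members with 7 or 8 markers held 532 and 408 CPM. In library 1 the most abundant of them were the complement genes *C1qa* and *C1qb*, both at 2767 CPM. Astrocyte markers summed to 2859 and 2800.0 CPM against 404 and 546 CPM, with the glutamate transporter *Slc1a2* most abundant. Endothelial markers stood at 2397 and 4081 against 196 and 147 CPM, and neuroblast markers, led by *Sox11*, at 2949 and 1704 against 404 and 149.9 CPM. In every one of these lists the members with 4 to 6 markers were higher in both libraries. Neuronal markers, with the noncoding *Meg3* first, gave 1425 and 3055 against 168 and 159 CPM, mural markers 1439 and 594 against 356 and 195 CPM and OPC markers 1029 and 1483 against 50.8 and 78.0 CPM. Globin transcripts of red blood cells separated the libraries, at 14200.4 CPM in library 1 and 12.5 CPM in library 2, where 2 of the 5 erythroid genes were at 0, against 2339.9 and 917 CPM in members with 7 or 8 markers. Few barcodes held 4 or more erythroid markers: 13 of 664 and 0 of 94 with 4 to 6 oligodendrocyte markers, and 14 of 688 and 2 of 865 with 7 or 8. Macrophage markers gave 319.6 and 91.8 against 18.4 and 19.9 CPM and ependymal markers 169.6 and 189 against 36.3 and 49.7 CPM. The 8 oligodendrocyte markers themselves summed to 1339.7 and 1358 CPM in members with 4 to 6 of them and to 21810.4 and 20353 CPM in those with 7 or 8. Astrocytes held 518 and 216, microglia 401 and 218 and endothelial cells 498 and 239 CPM. Scrublet, a doublet caller, marked 42 members of library 1 (3.11%) and 48 of library 2 (5.01%), and these were kept. Whether more than 1 cell, or free transcripts, lay behind the mixed barcodes was not tested.

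Among the 8 rule genes, *Mobp* was detected in the most members of library 1 and *Mag* in those of library 2, and *Hapln2* was detected in the fewest in both. *Mog*, an antigen of the outer myelin surface, had a UMI in 79.4% and 96.2% of members. *Mag*, an adhesion molecule of the inner membrane that faces the axon, was found in 86.2% and 98.2%, and *Cldn11*, the tight junction protein of myelin, in 87.3% and 97.3%. *Opalin* was found in 62.1% and 89.1%, and *Hapln2*, which links hyaluronan to proteoglycans at nodes of Ranvier, in 49.6% and 75.5%. In members with 7 or 8 markers the libraries came close together, at 90.6% and 94.3% for *Opalin* and 79.9% and 81.6% for *Hapln2*, and each of the other 6 genes was missing in at most 7 members of a library. Their summed levels there were 4899 and 3474 CPM for *Mobp*, 4489.9 and 4578 CPM for *Cldn11*, 4148 and 3764 CPM for *Mag* and 378 and 348 CPM for *Hapln2*. Of the barcodes with exactly 7 markers, *Hapln2* was the missing gene in 138 of 215 and 159 of 213.

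The limits of the rule lay among barcodes of different kinds. With a mitochondrial share of 14% to less than 15%, 26 and 11 barcodes had *Mbp* at 3372 and 3403 CPM, and with 15% to less than 16%, 18 and 4 barcodes had it at 2733 and 2779 CPM. Barcodes with 4 markers (424 and 53) had *Mbp* at 315 and 197 CPM, and those just outside with 3 markers (938 and 199) at 323 and 157 CPM. Barcodes with 2 genes of newly formed cells (299 and 224) had it at 4593 and 4484 CPM, against 4552 and 4878 CPM in those with 3 (78 and 52). The marker limit was therefore the one that lay among barcodes low in *Mbp*, while the limits on mitochondrial share and on newly formed genes lay among barcodes high in it. Only 1 barcode of each library lay just above the limit of 300 genes.

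Members with 7 or 8 markers were deep, with a median of 15588.5 and 13576 UMIs and a mitochondrial share of 4.90% and 6.43%, whereas those with 4 to 6 markers had 5698.5 and 6614.5 UMIs and 4.41% and 5.38%. Over all members the medians were 10716.5 and 13167 UMIs, 3445.5 and 3768 detected genes and 4.76% and 6.39% mitochondrial UMIs. Oligodendrocytes with a high mitochondrial share had 2704 and 2638 UMIs and a mitochondrial share of 23.2% and 28.6%. Newly formed oligodendrocytes were about as deep as the members, with 12395.5 and 11070 UMIs, and OPCs had 2751.5 and 6080. A total of 9 barcode sequences occurred in both libraries, of which 1 was a member in both and 4 in at least 1.

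**Figure D2:**
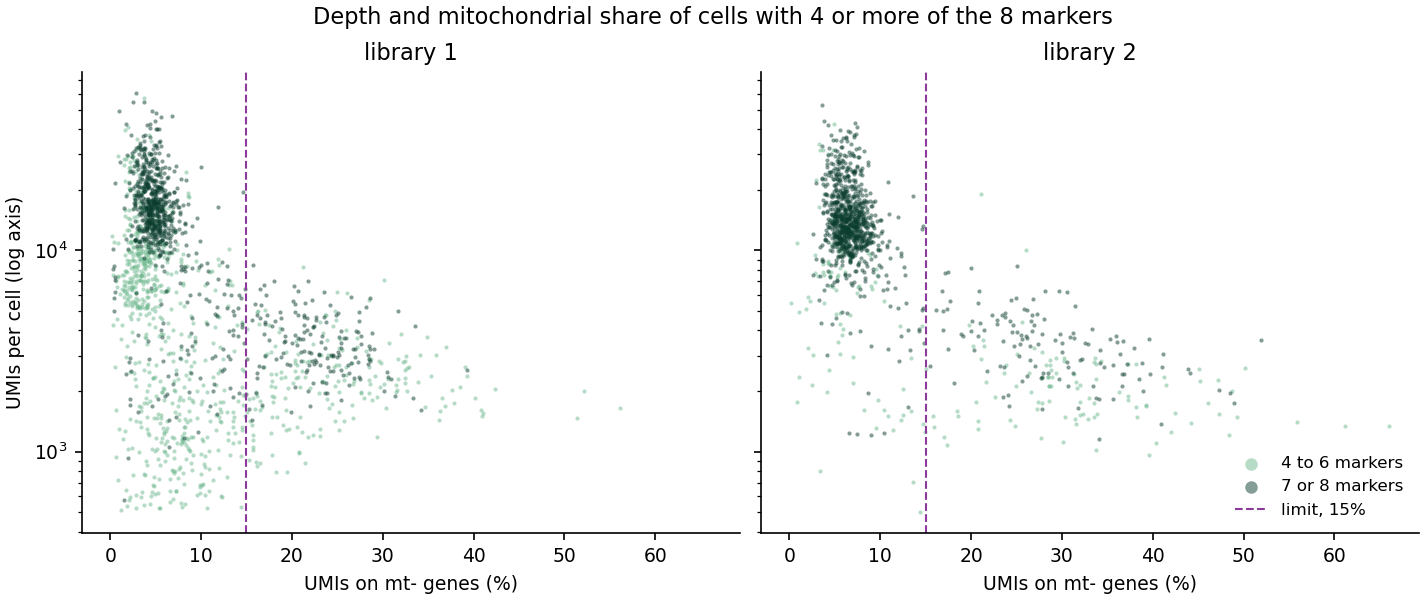
Each point is a barcode that meets the marker rule, with the percentage of its UMIs on the mitochondrial genome (x axis) and its UMIs (y axis, log scale), for library 1 and library 2. The dashed line is the 15% limit. Members with 7 or 8 markers gather at high UMI numbers, with medians of 15588.5 and 13576, and members with 4 to 6 markers lie lower, with medians of 5698.5 and 6614.5.

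Among the most abundant transcripts of the members with 7 or 8 markers were the nuclear noncoding RNA *Malat1* (48860.4 and 43731 CPM), the iron storage gene *Fth1* (23205 and 23682 CPM), the myelin proteolipid *Mal* (12389 and 11192 CPM) and the prostaglandin synthase *Ptgds* (10495 and 15594 CPM). The iron carrier *Trf* stood at 6667 and 6765 CPM, *Cnp*, an enzyme of noncompact myelin, at 6380.0 and 5977 CPM, and *Mbp* at 5573 and 4684 CPM. In these 3′ counts a transcript counts once whatever its length, so that the values can be set beside each other. *Malat1* lay above *Fth1* in both libraries, and *Ptgds* lay below *Mal* in library 1 and above it in library 2. In members with 4 to 6 markers *Malat1* (35794 and 32604 CPM) and *Cst3* (21776 and 20044 CPM), a protease inhibitor that microglia express at high level, came first, and *Fth1* stood at 2972 and 2751 CPM.

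Outside the rule genes, the 10 genes that set all members most apart from every class outside the lineage were ranked by the smaller of the ratios in the 2 libraries, and 8 of them are described. They included enzymes of myelin lipids, channels and secreted proteins. *Klk6*, a secreted serine protease (chr7:43824499-43832030, plus strand, GRCm38), stood at 168 and 180.3 CPM, 35.2 and 65.7 times the next class, and *Ugt8a*, which makes galactosylceramide (chr3:125865271-125938619, minus strand), at 831 and 1155 CPM, 32.0 and 54.8 times. The gap junction gene *Gjb1* (chrX:101376378-101385629, plus strand) reached 214 and 328 CPM with ratios of 29.6 and 100, and *Gjc3*, of the same family, (chr5:137953461-137963098, minus strand) 389 and 543 CPM with 26.7 and 59.0. The receptor for lysophosphatidic acid *Lpar1* (chr4:58435255-58553898, minus strand) stood at 461 and 551 CPM, 23.9 and 28.05 times the next class. *Ptgds* (chr2:25466709-25470046, minus strand) was at 7565 and 14767 CPM with ratios of 21.1 and 75.8. *Fa2h*, which hydroxylates the fatty acids of galactolipids (chr8:111345135-111393824, minus strand), stood at 408 and 647 CPM with 19.8 and 56.5, and *Plekhh1* (chr12:79029163-79081655, plus strand) at 189 and 347 CPM with 19.4 and 38.2. Each ratio was larger in library 2. For members with 7 or 8 markers this held for all but *Lpar1* (33.2 and 29.6), with *Ptgds* at 29.3 and 80.1. The level of *Ptgds* in astrocytes, its next class, was 359 and 195 CPM. What lay behind the difference between the libraries was not tested. All 8 genes were also among the first 10 when only members with 7 or 8 markers were used. With no limit on the mitochondrial share of the other classes, *Ptgds* gave ratios of 19.4 and 25.1, and *Plekhh1* moved to rank 12. Some of the next-class levels lay near the floor. In library 2 *Klk6* was at 2.75 CPM in neurons, whose nuclear-encoded UMIs summed to 364224. *Gjb1* was at 3.27 CPM in mural cells (611156 UMIs) and *Ugt8a* at 21.1 CPM in erythroid cells (47433 UMIs). The library 2 ratios of these genes thus rest on very few UMIs, and no counting interval is given for them. As the members were chosen on other genes of the same cells, all these ratios are descriptions.

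**Figure D3:**
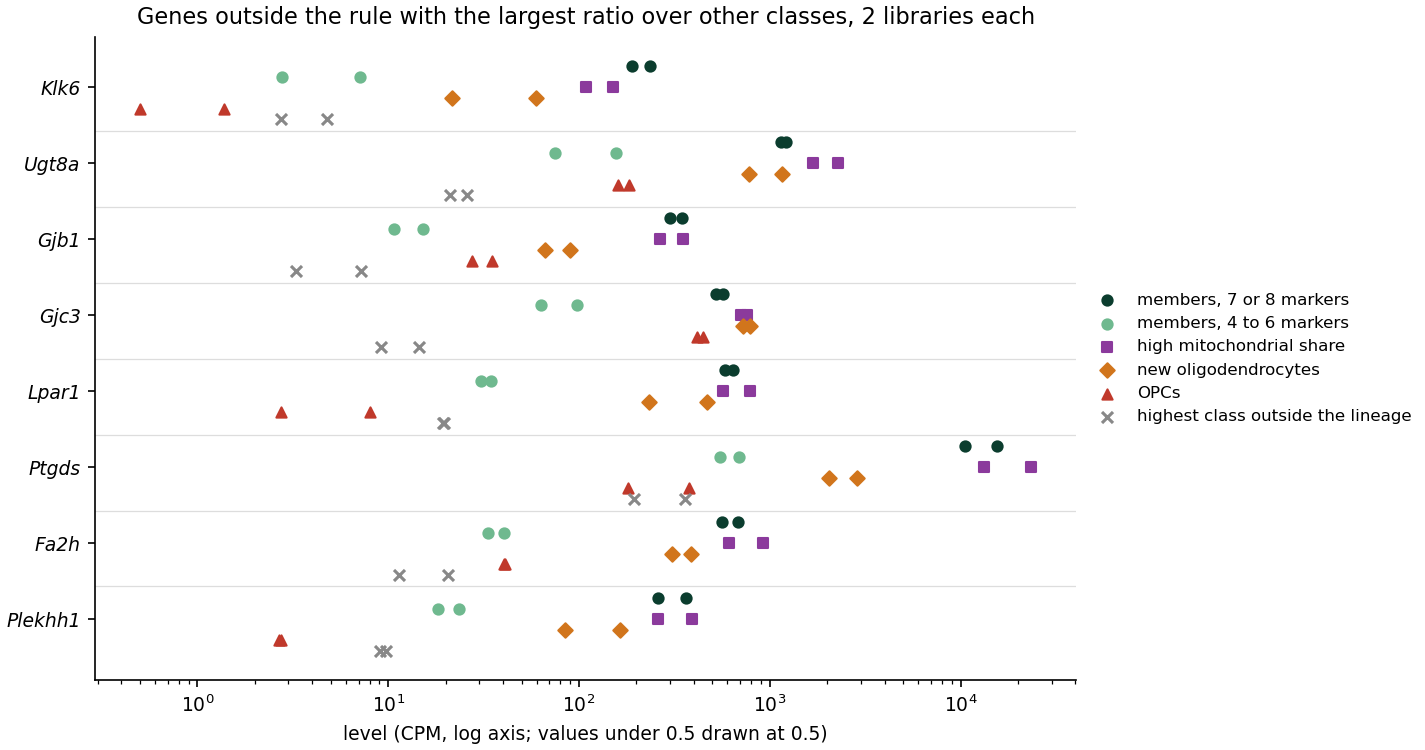
Levels of the 8 genes (CPM, log axis) in the members, the other 3 groups of the lineage and the classes outside it, with a symbol for each library. Values under 0.5 CPM are drawn at 0.5. Each gene was highest in lineage groups, with *Ptgds* at 10495 and 15594.5 CPM in members with 7 or 8 markers against 359 and 195 CPM in astrocytes.

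The first test set members against oligodendrocytes with a high mitochondrial share, and asked which nuclear transcripts differ between barcodes of the same marker rule. Members were higher in nuclear transcripts for ribosomal proteins and the respiratory chain and lower in the retained nuclear RNA *Malat1* and in enzymes of myelin lipid synthesis. With edgeR's quasi-likelihood test on the summed counts and Benjamini-Hochberg adjustment, 1516 of 11397 genes were higher (13.3%) and 1308 lower (11.5%), and for members with 7 or 8 markers 2077 of 11252 (18.5%) and 2047 (18.2%). Without TMM scaling the median log2 difference of all genes was 0.20 in place of 0.05 and the split became 2020 higher and 909 lower. The mitochondrial genes and all genes used to draw a group were left out of these tests. A log2 fold change is positive where members were higher.

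*Malat1* (chr19:5795690-5802672, minus strand) stood at 45010.0 and 43113 CPM in members and at 176267 and 136499 CPM in oligodendrocytes with a high mitochondrial share (log2 fold change -1.97 ± 0.53 SE, -2.15 and -1.80 by library, adjusted p = 0.0155). The groups did not overlap. Of 5 nuclear-retained RNAs 3 were tested, and all 3 fell, the others being *Neat1* and *Kcnq1ot1* (median log2 fold change -1.35, against 0.05 over all genes tested). Of 76 ribosomal protein genes, 62 rose and 1 fell (median 0.86), and of 73 nuclear genes of the respiratory chain 48 rose and 1 fell (median 0.70). For members with 7 or 8 markers the counts were 60 rises and 1 fall of ribosomal genes and 57 rises and 1 fall of respiratory chain genes. The members' higher counts of these genes lay beside their larger depth (medians of 10716.5 and 13167 UMIs against 2704 and 2638). With each barcode thinned to 1000 UMIs, 476 genes were higher and 565 lower of 4103 tested, with 50 rises among 76 ribosomal genes and 20 rises and 1 fall among 72 respiratory chain genes. *Malat1* then gave a log2 fold change of -1.85 (adjusted p = 0.0020).

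Of 11 genes of compact myelin and the sheath, 6 rose, none fell and 5 did not pass the test (median 0.88). *Qdpr*, an enzyme that recycles tetrahydrobiopterin, stood at 1479 and 2043 CPM against 478 and 439 CPM (log2 fold change 1.78 ± 0.25 SE, 1.45 and 2.08 by library, adjusted p = 0.000581). *Plekhb1* stood at 313 and 418 against 93.7 and 122 CPM (log2 fold change 1.60 ± 0.20 SE, 1.55 and 1.63 by library, adjusted p = 0.00048). The small heat shock protein *Cryab* (1.18 ± 0.25, adjusted p = 0.00424) and *Cnp* (0.88 ± 0.28, adjusted p = 0.0327) were also higher in members. *Mbp* did not pass the test, with a log2 fold change of 0.07 ± 0.34 (adjusted p = 0.912). The same count of 6 rises held for members with 7 or 8 markers.

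Enzymes of myelin lipids were lower in members. Of 14 such genes 10 fell and 4 did not pass the test (median -0.99), with 8 falls and 1 rise for members with 7 or 8 markers. *Abca2*, a lipid transporter, stood at 465 and 718 CPM against 1193 and 1800.4 CPM (log2 fold change -1.50 ± 0.23 SE, -1.54 and -1.46 by library, adjusted p = 0.000765). The desaturase *Scd2* stood at 1933 and 3274 against 4578 and 7175 CPM (log2 fold change -1.34 ± 0.27 SE, -1.43 and -1.27 by library, adjusted p = 0.00369). *Ugt8a* stood at 831 and 1155 against 1679 and 2280.1 CPM (log2 fold change -1.16 ± 0.22 SE, -1.20 and -1.12 by library, adjusted p = 0.00273). In each of the 3 genes both libraries of the members lay below both of the other group. Of 16 genes of cholesterol synthesis 7 fell and 1 rose (median -0.32). *Cyp51*, a demethylase of this pathway, stood at 136 and 199 against 334 and 608 CPM (log2 fold change -1.62 ± 0.20 SE, -1.48 and -1.75 by library, adjusted p = 0.000466). *Mvd*, an early enzyme of the same pathway, was the 1 that rose (1.22 ± 0.42, adjusted p = 0.0469), and it missed the threshold with DESeq2 (adjusted p = 0.148). In members with 7 or 8 markers 4 genes of the list rose and 7 fell.

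At the membrane that meets the axon, 7 of 12 adhesion molecules and inhibitors of axon growth fell (median -0.71), among them the juxtaparanodal *Cntn2* (log2 fold change -1.14 ± 0.22 SE, adjusted p = 0.00264) and *Jam3* (-1.14 ± 0.19). The gap junction gene *Gjc3* fell (log2 fold change -0.82 ± 0.21 SE, adjusted p = 0.0127). Of 11 receptors 6 fell (median -0.57, and 3 without TMM scaling), such as the neuregulin receptor *Erbb3* (log2 fold change -1.25 ± 0.17 SE, adjusted p = 0.000517) and *Gpr37* (-1.08 ± 0.22), with 4 falls for members with 7 or 8 markers. Genes of axon support and ion transport went both ways, with 3 rises and 4 falls of 12 (5 and 3 for members with 7 or 8 markers). The lactate transporter *Slc16a1* fell (log2 fold change -1.26 ± 0.17 SE, adjusted p = 0.00053), whereas the carbonic anhydrase *Car2* (0.91 ± 0.29, adjusted p = 0.0319) and the glutamine synthetase *Glul* (1.10 ± 0.27, adjusted p = 0.00974) rose.

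The remaining groups had calls in 1 direction or in both, and the counts differed between all members and those with 7 or 8 markers in most lists. Of 16 lineage transcription factors *Nkx6-2* rose (log2 fold change 1.11 ± 0.19 SE, adjusted p = 0.00163). *Myrf*, which switches on myelin genes, fell (log2 fold change -0.66 ± 0.18 SE, adjusted p = 0.0144), but gave -0.27 ± 0.16 (adjusted p = 0.203) for members with 7 or 8 markers, among whom 4 factors rose and 4 fell. Iron genes (2 of 7 higher, 2 lower), genes of the cytoskeleton (2 of 14 higher, 1 lower), heat shock genes (2 of 8 higher, 1 lower) and targets of p53 (2 of 7 higher) stood beside a background of 13.3% higher and 11.5% lower. The 7 iron genes included *Slc40a1*, with 2 UMIs in the other group against 446 in members, which entered the test only through the members' own counts. For members with 7 or 8 markers, beside a background of 18.5% and 18.2%, 7 cytoskeletal genes rose and 3 fell of 14, 4 of 8 heat shock genes rose and 1 fell, 3 of 7 targets of p53 rose, and 2 of 6 iron genes rose and 2 fell. Without TMM scaling 6 of the 14 cytoskeletal genes rose for all members, and 3 iron genes rose and none fell. Of 9 immediate early genes, which cells switch on within minutes of a stimulus, 4 rose, but for members with 7 or 8 markers 1 of 8 rose and 1 fell. Of the short lists that mark oligodendrocyte subtypes, the *Klk6* list gave 1 rise of 3, the *Ptgds* list 2 rises and 2 falls of 5, and the immune list 1 rise and 1 fall of 5 (2 rises, 2 rises and 2 falls, and 3 falls for members with 7 or 8 markers). Of 10 OPC genes outside the rules 3 fell (median -0.83), and 8 for members with 7 or 8 markers (median -1.97). The group with a high mitochondrial share was not limited in this way: 154 of its 345 and 125 of its 225 barcodes had 7 or 8 markers, and its OPC markers summed to 299 and 292 CPM, against 50.8 and 78.0 CPM in the members with 7 or 8. Its neuronal markers summed to 693 and 979.8 CPM against 168 and 159 CPM, and its astrocyte markers to 1705 and 731 against 404 and 546 CPM. The part of these differences in the falls was not tested.

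Ranked by fold, the 6 largest rises against oligodendrocytes with a high mitochondrial share were *Hmgb2*, *Efhd1*, *Adi1*, *Klf2*, *Ybx3* and *Hmgn2*. Here and below, such rankings cover genes at 50 CPM or more in the higher group with the same direction in both libraries. *Efhd1*, a calcium-binding protein of mitochondria, stood at 190.5 and 251 CPM against 29.5 and 55.1 CPM (log2 fold change 2.26 ± 0.22 SE, 2.49 and 2.04 by library, adjusted p = 0.00022). *Hmgb2*, a chromatin protein of proliferating and immature cells, had 409 and 93.3 CPM against 48.8 and 26.5 CPM (log2 fold change 2.40 ± 0.43 SE, 2.87 and 1.66 by library, adjusted p = 0.00187). Most of the *Hmgb2* transcripts came from members with 4 to 6 markers, at 1220.1 and 1059 CPM. For members with 7 or 8 markers the change of *Hmgb2* was 0.43 ± 0.27 (adjusted p = 0.234), while *Klf2* gave 0.54 ± 0.36 (adjusted p = 0.258). The 6 largest falls were *Cdh2*, *B430010I23Rik*, *Malat1*, *3110021N24Rik*, *C1qtnf4* and *E130102H24Rik*. *Cdh2*, N-cadherin, stood at 95.8 and 119 CPM against 494 and 629 CPM (log2 fold change -2.54 ± 0.17 SE, -2.55 and -2.53 by library, adjusted p = 6.38e-06), with no overlap between the groups. For members with 7 or 8 markers the largest falls were *C1qtnf4*, *Nrgn*, *Ly6h*, *Pcp4*, *Cdh2* and *Arpp21*. *Nrgn*, neurogranin, a calmodulin-binding protein of neurons, stood at 27.5 and 7.04 CPM in these members and 203 and 77.6 CPM in the other group, and was 182 and 398 CPM in members with 4 to 6 markers (log2 fold change -3.04 ± 0.21 SE for those with 7 or 8, adjusted p = 3.56e-08). *Pcp4* (-2.55 ± 0.17) and *Arpp21* (-2.53 ± 0.19), which striatal neurons also express, fell beside it, and the neuronal markers of the group with a high mitochondrial share are given above.

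The second test set members against newly formed oligodendrocytes, the stage before them in the lineage. Members were higher in most receptors and cytoskeletal genes and in the genes of the *Ptgds* and *Klk6* states, and lower in genes of precursors and in several early transcription factors. Of 11397 genes 1538 were higher (13.5%) and 1547 lower (13.6%), and for members with 7 or 8 markers 2242 of 11252 (19.9%) and 2427 (21.6%). Without TMM scaling the median of all genes was -0.15 in place of 0.01 and the split became 1128 higher and 1989 lower. The members' own sums are shared with the other comparisons.

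All 10 OPC genes outside the rules fell (median -2.93, against 0.01 over all genes tested). *Tnr*, an extracellular matrix glycoprotein, stood at 18.3 and 9.19 CPM in members and 977 and 803 CPM in newly formed cells (log2 fold change -5.84 ± 0.26 SE, -5.61 and -6.14 by library, adjusted p = 9.88e-09). No value of members came near the other group. Of 16 transcription factors of the lineage 7 fell and 3 rose, with 8 falls and 6 rises for members with 7 or 8 markers. *Olig2*, the factor that specifies the lineage, stood at 199.5 and 147 against 678 and 471 CPM (log2 fold change -1.56 ± 0.19 SE, -1.67 and -1.44 by library, adjusted p = 3.38e-05). *Nkx2-2* (-2.16 ± 0.25) and *Sox6* (-4.06 ± 0.31), the latter a factor of immature cells, fell further. *Nkx6-2*, a factor of mature cells, rose (log2 fold change 1.08 ± 0.18 SE, adjusted p = 0.000455). *Myrf* gave 0.15 ± 0.17 (adjusted p = 0.584) and passed the test only for members with 7 or 8 markers (0.55 ± 0.15, adjusted p = 0.00595).

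Sheath genes rose in part. Of the same 11 genes of compact myelin and the sheath 6 rose (median 0.64). Among them *Mal* stood at 8929.6 and 10599.7 against 2713 and 4948 CPM (log2 fold change 1.53 ± 0.44 SE, 1.81 and 1.34 by library, adjusted p = 0.0182), and *Ndrg1* (2.24 ± 0.32) and *Qdpr* (1.61 ± 0.24) rose as well. *Mbp* was at 4072 and 4455 CPM in members and 5064 and 5012 CPM in newly formed cells (log2 fold change -0.06 ± 0.34 SE, adjusted p = 0.923). It did not pass the test. Enzymes of myelin lipids gave 6 rises and 2 falls of 14 (median 0.44), with 10 rises and 1 fall for members with 7 or 8 markers. *Aspa*, which splits N-acetylaspartate to supply acetate, stood at 503 and 858 against 153 and 177 CPM (log2 fold change 2.16 ± 0.26 SE, 1.81 and 2.51 by library, adjusted p = 2.21e-05). Cholesterol synthesis went the other way, with 6 of 16 genes lower, among them *Mvd* (log2 fold change -1.32 ± 0.23 SE, adjusted p = 0.000605), and a median of -0.28 that became 0.02 for members with 7 or 8 markers.

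Most receptors, and some genes of iron and transport, were higher in members than in newly formed cells. Of 11 receptors 8 rose (median 1.09), among them the glutamate receptor *Grm3* (log2 fold change 2.43 ± 0.24 SE, adjusted p = 3.82e-06), *Gprc5b* (1.78 ± 0.23) and *Gpr37* (1.38 ± 0.22). *Trf* stood at 4868 and 6423 CPM against 1637 and 1412 CPM (log2 fold change 2.06 ± 0.33 SE, 1.66 and 2.42 by library, adjusted p = 0.000342). The ferritin heavy chain *Fth1* stood at 17243 and 22519.7 against 5571 and 5525 CPM (log2 fold change 2.02 ± 0.38 SE, 1.72 and 2.26 by library, adjusted p = 0.00119). The third of 3 rises among 7 iron genes was the exporter *Slc40a1*, with 2 UMIs in newly formed cells against 446 in members. It entered the test only through the members' own counts, so its rise is a description. Members with 7 or 8 markers held 80 of these UMIs, and the gene was not tested for them. They gave 2 rises and 1 fall of 6 iron genes. Of 12 genes of axon support and ion transport 6 rose and 2 fell (median 0.72). *Glul* (log2 fold change 2.38 ± 0.28 SE, adjusted p = 1.94e-05), *Car2* (2.30 ± 0.30) and the sodium pump subunit *Atp1b3* (1.79 ± 0.20) rose, and the deacetylase *Sirt2* fell (log2 fold change -2.17 ± 0.24 SE, adjusted p = 1.34e-05). *Gjb1* also rose (log2 fold change 1.94 ± 0.19 SE, adjusted p = 4.29e-06).

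Genes of the cytoskeleton and of the membrane that meets the axon went both ways. Of 14 cytoskeletal genes 9 rose and 2 fell (median 1.00), with 12 rises and 2 falls for members with 7 or 8 markers. Anillin (*Anln*, 2.23 ± 0.24, adjusted p = 8.43e-06), *Stmn1* (2.19 ± 0.21) and *Pls1* (1.86 ± 0.23) rose, whereas *Marcks* (log2 fold change -2.88 ± 0.38 SE, adjusted p = 5.50e-05) and the tubulin *Tubb2b* (-2.24 ± 0.32) fell. Among 12 molecules of axon contact 2 rose and 6 fell (4 and 4 for members with 7 or 8 markers). *Cntn2* rose (log2 fold change 1.90 ± 0.23 SE, adjusted p = 2.51e-05), while *Nfasc*, which anchors the paranode (log2 fold change -2.03 ± 0.21 SE, adjusted p = 6.61e-06), and *Cntn1* (-2.56 ± 0.22) fell.

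All 3 genes of the *Klk6* list and all 5 of the *Ptgds* list rose, with medians of 2.26 and 2.32. *Klk6* stood at 168 and 180.3 CPM in members and 59.6 and 21.7 CPM in newly formed cells (log2 fold change 2.26 ± 0.31 SE, 1.57 and 3.26 by library, adjusted p = 8.94e-05). *Ptgds* had 7565 and 14767 against 2043 and 2883 CPM (log2 fold change 2.32 ± 0.44 SE, 1.98 and 2.59 by library, adjusted p = 0.00118). *Il33*, a nuclear cytokine that mature oligodendrocytes hold, had 239 and 345 against 47.6 and 19.5 CPM (log2 fold change 3.25 ± 0.32 SE, 2.40 and 4.35 by library, adjusted p = 3.94e-06). For members with 7 or 8 markers *Il33* was the largest rise among genes at 50 CPM or more in the higher group, at 3.65 ± 0.24. Of 9 immediate early genes 7 rose and 1 fell, and for members with 7 or 8 markers 5 of 8 rose and 1 fell. Heat shock genes (2 of 8 higher, 1 lower), p53 targets (2 of 7 higher, 2 lower), nuclear-retained RNAs (1 of 3 higher) and immune genes (1 of 5 higher) stood beside a background of 13.5% higher and 13.6% lower. Few ribosomal genes (2 of 76 higher) and nuclear respiratory chain genes (1 of 73 higher) passed the test. In members with 7 or 8 markers 4 of 8 heat shock genes rose, 1 immune gene rose and 2 fell, and 4 ribosomal genes rose and 6 fell. Without TMM scaling the ribosomal list turned to 3 falls and the respiratory chain list to 7 falls.

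By the same ranking, the largest rises against newly formed cells were led by microglial genes. *Laptm5* stood at 165 and 50.4 CPM in members against 1.64 and 3.89 CPM (log2 fold change 5.07 ± 0.39 SE, 6.36 and 3.76 by library, adjusted p = 4.60e-07). *C1qc* (4.83 ± 0.27), *Tyrobp* (3.91 ± 0.29), *Fcer1g* (3.82 ± 0.24), *Ccnd2* (3.77 ± 0.61) and *Klf2* (3.73 ± 0.29) followed. *Laptm5* was at 506 and 531 CPM in members with 4 to 6 markers and 22.9 and 22.1 CPM in those with 7 or 8, and newly formed cells had been chosen without barcodes holding 4 microglial markers. The microglial list summed to 3953 and 1018 CPM in all members and 139 and 89.5 CPM in newly formed cells. With barcodes that held markers of another class removed, *Laptm5* gave a log2 fold change of 0.94 (adjusted p = 0.104) and *C1qc* 0.57 (adjusted p = 0.0998). For members with 7 or 8 markers *Laptm5* still gave 3.06 ± 0.34 (adjusted p = 3.90e-07) and *C1qc* 2.64 ± 0.21 (adjusted p = 3.73e-09). *Laptm5* lay under the limit of 50 CPM there. Among genes above this limit, the largest rises for these members were *Il33*, *Rasgrp3* (2.90 ± 0.20), the potassium channel *Kcnk13* (2.79 ± 0.22), *C030029H02Rik* (2.77 ± 0.18), *Sez6l2* (2.73 ± 0.18) and *Grm3* (2.72 ± 0.19). The largest falls were *Matn1*, *Rassf10*, *Tnr*, *9630013A20Rik*, *Susd4* and *Kif19a*. *Matn1* stood at 0.262 and 0.386 CPM against 100.1 and 55.1 CPM (log2 fold change -6.48 ± 0.39 SE, -7.01 and -5.83 by library, adjusted p = 6.28e-08). The noncoding *9630013A20Rik* stood at 15.2 and 13.9 against 719 and 727 CPM (log2 fold change -5.43 ± 0.25 SE, -5.43 and -5.43 by library, adjusted p = 1.73e-08).

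The third test set members against OPCs, the start of the lineage. Most genes of the sheath were higher in members, and all 10 OPC genes outside the rules were lower (median -4.67). Of 11397 genes 2489 were higher (21.8%) and 2423 lower (21.3%), and for members with 7 or 8 markers 2975 of 11252 (26.4%) and 3051 (27.1%). Without TMM scaling the median of all genes was -0.47 in place of 0.01 and the split became 1469 higher and 4132 lower, so that the balance of the calls rests on the scaling.

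*Mbp* stood at 4072 and 4455 CPM against 373 and 130.4 CPM in OPCs (log2 fold change 4.67 ± 0.41 SE, 3.86 and 5.64 by library, adjusted p = 5.32e-07). In all, 10 of 11 sheath genes rose (median 4.77, against 0.01 over all genes tested), the exception being *Pllp* (0.48 ± 0.23, adjusted p = 0.103), which passed for members with 7 or 8 markers. Of the lipid enzymes 13 of 14 rose (median 3.13), led by *Aspa* (log2 fold change 5.89 ± 0.39 SE, adjusted p = 3.95e-08), and of 16 cholesterol genes 13 rose (median 1.49). Without TMM scaling 8 cholesterol genes rose and 1 fell (median 1.01), and with DESeq2 9 rose. *Hmgcs1*, the entry to the mevalonate pathway, rose (log2 fold change 2.75 ± 0.32 SE, adjusted p = 7.62e-06). *Gjb1* (3.66 ± 0.26) and *Gjc3* (0.59 ± 0.22) rose as well, though *Gjc3* gave 0.10 without TMM scaling (adjusted p = 0.683).

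Transcription factors divided. *Myrf* (log2 fold change 3.89 ± 0.26 SE, adjusted p = 4.44e-08), *Nkx6-2* (5.59 ± 0.29) and *St18* were among 6 of 16 that rose. *Olig1* (log2 fold change -1.20 ± 0.22 SE, adjusted p = 0.000565), *Olig2* (-2.20 ± 0.20) and *Sox6* (-4.68 ± 0.33) were among 8 that fell. *Sox10*, which the lineage keeps at every stage, did not pass the test (-0.43 ± 0.23, adjusted p = 0.148), but was lower without TMM scaling (-0.92, adjusted p = 0.0043). *St18* had no UMI in OPCs of either library and 79.8 and 113 CPM in members, at least 34.9-fold higher when 3 UMIs over the OPCs are taken as the limit. Receptors gave 8 rises and 2 falls of 11 (median 3.03), and cytoskeletal genes 12 rises and 2 falls of 14 (median 3.63). Iron genes gave 5 rises and 1 fall of 7, and 4 rises and 1 fall of 6 for members with 7 or 8 markers, where *Slc40a1* was not tested. Axon support genes gave 9 rises and 1 fall of 12 (8 and 2 without TMM scaling), and molecules of axon contact 7 rises and 2 falls of 12 (6 and 4 without it). *Lpar1* stood at 461 and 551 CPM against 8.05 and 2.74 CPM (log2 fold change 7.19 ± 0.40 SE, 6.14 and 7.89 by library, adjusted p = 1.31e-08). *Fgfr2* (5.61 ± 0.30) and *Gpr37* (6.21 ± 0.35) also rose, whereas *Fgfr1* and *Adora1* fell. The last 2 thus moved apart from the other receptors in the list.

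All 5 genes of the *Ptgds* list and all 3 of the *Klk6* list rose. *Ptgds* stood at 7565 and 14767 CPM against 378 and 181 CPM (log2 fold change 5.74 ± 0.53 SE, 4.73 and 6.89 by library, adjusted p = 9.41e-07). *Apod*, a lipid carrier, stood at 1635 and 2636 against 59.0 and 30.2 CPM (log2 fold change 6.16 ± 0.40 SE, 5.19 and 6.97 by library, adjusted p = 3.55e-08). *Klk6* had 1 UMI in all OPCs, a ratio of 191 with an exact counting interval of 34.3 to 7549. Immediate early genes gave 5 rises and 1 fall of 9 for all members (3 and 2 without TMM scaling) and 2 rises and 1 fall of 8 for members with 7 or 8 markers. There were 5 rises and 1 fall of 8 heat shock genes, and 3 rises without TMM scaling. Targets of p53 gave 4 rises and 2 falls of 7 (2 rises without that scaling), nuclear-retained RNAs 1 rise and 1 fall of 3, and immune genes 1 rise and 2 falls of 5 (1 rise and 4 falls for members with 7 or 8 markers, and 2 falls without TMM scaling). For ribosomal genes 45 of 76 rose and 1 fell (median 0.58), but without TMM scaling 7 rose and 5 fell with a median of 0.10. The nuclear respiratory chain list, with 12 rises of 73 (median 0.23), turned to 20 falls (median -0.25) without that scaling, so that no direction can be given.

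Ranked by the fitted fold, the largest rises against OPCs were *St18*, *Tnni1*, *C030029H02Rik*, *Klk6*, *Lpar1* and *Mob3b*. *St18*, *Tnni1* and *Mob3b* had no UMI in OPCs, so that only a lower limit of their fold is known and their place in this order is not measured. *Tnni1*, a troponin, had 62.0 and 86.0 CPM in members and no UMI in OPCs, at least 26.8-fold higher, and *Mob3b*, with 51.9 and 72.2 CPM, was at least 22.5-fold higher. *C030029H02Rik* had 1 UMI in OPCs, a ratio of 184 with a counting interval of 33.0 to 7258. The largest falls were *Emid1*, *Gm4876*, *Tnr*, *Tmem255b*, *Plpp4* and *Sstr1*. *Emid1* stood at 6.94 and 2.47 CPM against 416 and 316 CPM (log2 fold change -5.74 ± 0.24 SE, -5.40 and -6.21 by library, adjusted p = 5.22e-09). *Tnr* stood at 18.3 and 9.19 against 907 and 970.3 CPM (log2 fold change -5.62 ± 0.26 SE, -5.18 and -6.11 by library, adjusted p = 7.11e-09).

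**Figure D4:**
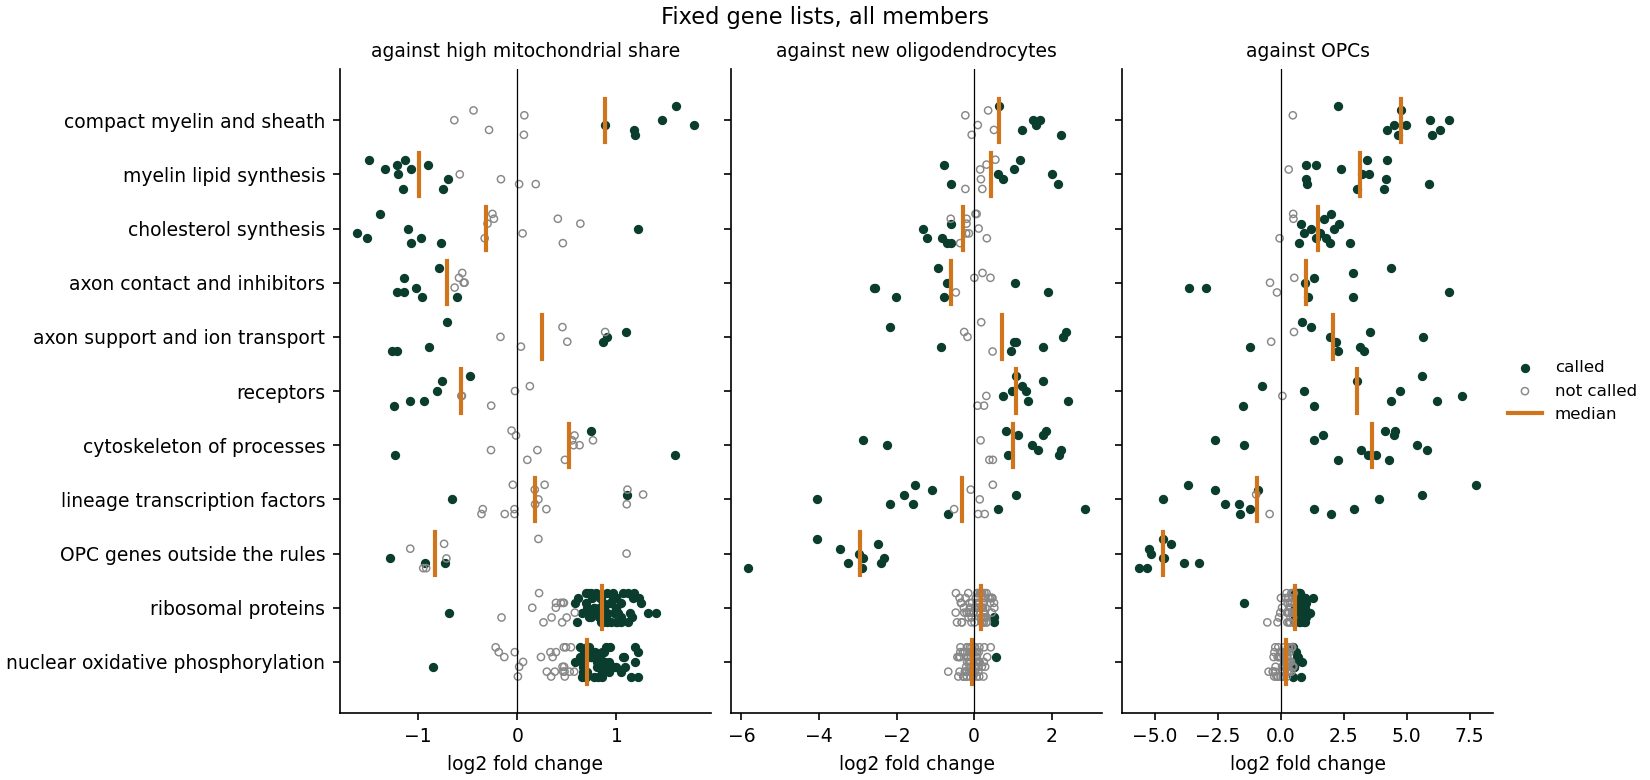
Log2 fold change of each tested gene of 11 lists (rows) in members against oligodendrocytes with a high mitochondrial share, newly formed oligodendrocytes and OPCs (panels), positive where members were higher. Filled points passed the test, open points did not, and the bar is the list's median, 0.88, 0.64 and 4.77 for compact myelin and the sheath. The respiratory chain and ribosomal lists change direction or most of their calls without TMM scaling against OPCs and newly formed cells.

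Among the members themselves, a few transcripts varied far more than counting allows. Barcodes were thinned to 2000 UMIs, which kept 1130 and 937 members and left out 222 and 22 shallower ones, and the variance of a gene over its mean (the Fano factor, near 1 for counting alone) was taken in each library. The globin gene *Hbb-bs* came first, at 807 and 346, then *Cst3* at 108 and 96.1, the globins *Hba-a1*, *Hbb-bt* and *Hba-a2*, *Ptgds* at 36.4 and 30.7 and *Malat1* at 117 and 24.2. *Bsg* followed at 25.9 and 19.2 and *C1qb* at 19.1 and 17.0. Globins mark red blood cells, *Bsg* is high in endothelial cells, and *C1qb* belongs to microglia. When the 461 and 723 members without 4 markers of another class were used, the list was led by *Malat1* (141 and 19.2) and *Ptgds* (30.0 and 28.8). It included *Fth1*, *Mal*, *Apoe*, *Sirt2*, *Trf*, *Apod* and *Klk6* (3.4 and 3.2). *Ptgds* and *Malat1* were the 2 genes among the first 10 with and without the mixed barcodes.

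The genes of mature states were found in different shares of the members with 7 or 8 markers. At 2000 UMIs *Ptgds* had a UMI in 83.7% and 86.1% of them, *Il33* in 38.4% and 40.2%, and *Klk6* in 14.4% and 10.9%. Before thinning these shares were 97.4% and 96.9%, 63.2% and 68.8%, and 23.7% and 22.2%. Microglia, which should lack these genes, gave at 2000 UMIs 30.3% and 21.7% for *Ptgds*, 1.82% and 0.731% for *Il33* and 0.303% and 0.487% for *Klk6*, with medians of 6454 and 5479 UMIs before thinning. All 3 genes thus stood above this background, though for *Ptgds* the background itself was high. *Il33* had a UMI in 13.7% and 15.4% of oligodendrocytes with a high mitochondrial share at the same depth, and in the comparison of summed counts it was higher in members (log2 fold change 1.19 ± 0.31 SE, adjusted p = 0.0125). *Apod* was lower in members than in that group (-1.16 ± 0.28).

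*Hapln2* and *Klk6* went together within the members. The members with 7 or 8 markers were divided into the 550 and 706 with a *Hapln2* UMI and the 138 and 159 without. Their median depth was close, at 15608 and 15257.5 UMIs in library 1 and 13452 and 15244 in library 2. The division was made on a gene of the same cells after the values were seen, and the cells without *Hapln2* hold by construction all 7 other markers, so that the levels are given without a test. *Klk6* stood at 296 and 241 CPM with and 0.897 and 1.94 CPM without *Hapln2*. The calcium-binding protein *S100b* had 442 and 419 against 14.8 and 20.1 CPM, the myelin protein *Pmp22* 389 and 363 against 17.0 and 23.6 CPM, and the organic anion transporter *Slco3a1* 224 and 212 against 16.1 and 20.5 CPM. All 4 genes were more than an order of magnitude lower without *Hapln2* in both libraries. *Anln* (631 and 538 against 112 and 88.6 CPM), *Anxa5* (141 and 136 against 13.5 and 29.4 CPM), *Apod* (2603 and 3203 against 884 and 1200.3 CPM) *Trf* (7582 and 7629 against 3162 and 3539 CPM) and *Car2* (3445 and 3605 against 2067 and 2170.2 CPM) were higher with it as well.

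Other genes were higher in the members without *Hapln2*. The chemokine *Cxcl12* (chr6:117168535-117181367, plus strand) stood at 182 and 124 CPM without against 31.6 and 20.3 CPM with *Hapln2*. *Ctps*, an enzyme of CTP synthesis, stood at 154 and 237 against 28.6 and 41.4 CPM. *Cntn1* was at 158 and 157 against 35.7 and 39.0 CPM and *Nfasc* at 997 and 853 against 386 and 369.8 CPM. *Cntn1* and *Nfasc*, genes of the paranode, were also lower in members than in newly formed cells. *Opalin* (1905 and 2342 against 849 and 1198 CPM) and *Mal* (17711 and 16749 against 10999 and 9703 CPM) were higher without it. *Ptgds* (11996 and 18806 against 10103 and 14734 CPM) was slightly higher without it. *Mbp* stood at 5819.8 and 4843 CPM without and 5508 and 4641 CPM with *Hapln2*. *Il33* was lower without it in library 1 and level in library 2 (256 and 363 against 346 and 363 CPM). *Klk6* and *Il33*, both of which were higher in members than in newly formed cells, therefore lay differently with respect to *Hapln2*. The *Ptgds* list as a whole did not. Its genes *Apod*, *Car2* and *Grm3* (112 and 129 CPM with against 71.3 and 94.4 CPM without) were higher with *Hapln2*, as *Klk6* was. Within that list only *Ptgds* itself was higher without it in both libraries.

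**Figure D5:**
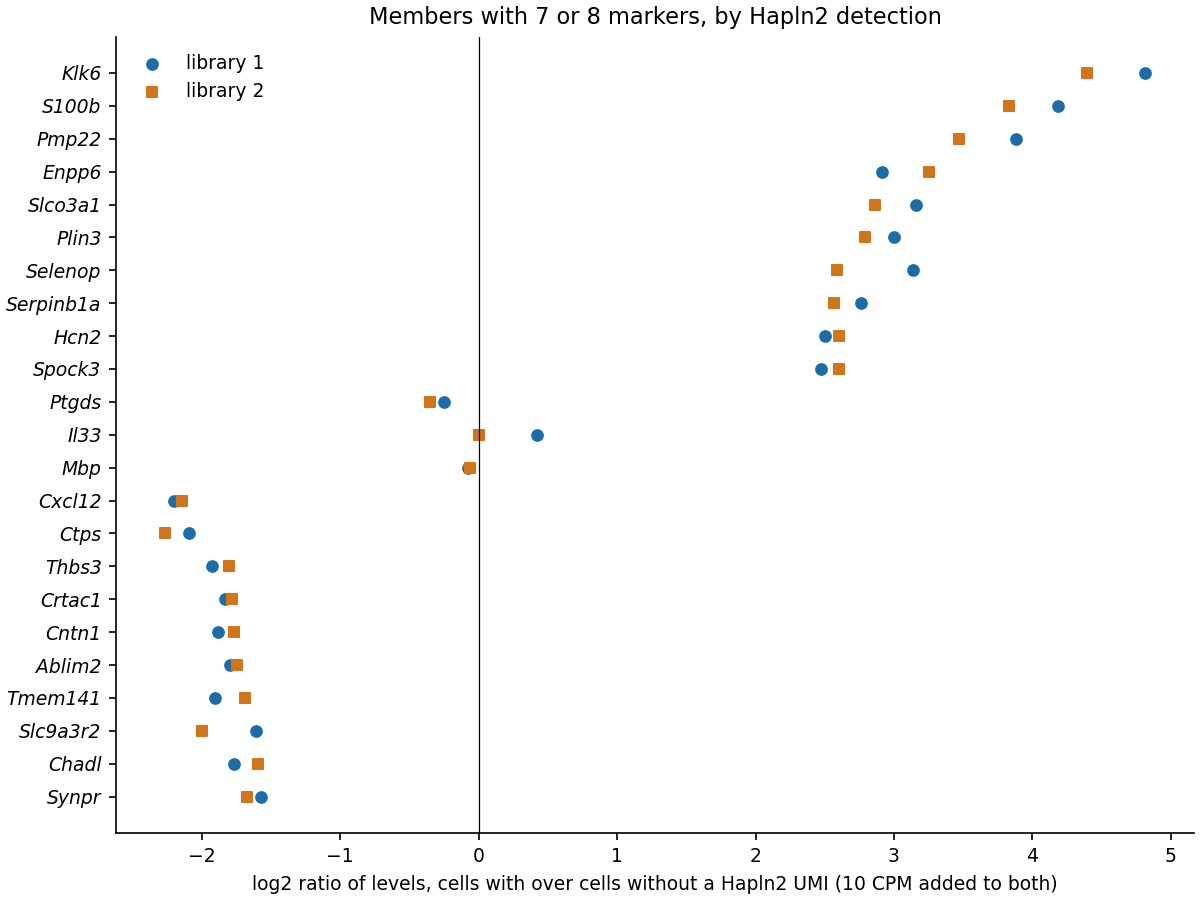
Log2 ratio of the level in members with 7 or 8 markers that have a *Hapln2* UMI over the level in those without one (x axis, 10 CPM added to both), for named genes (y axis) in library 1 and library 2. *Klk6*, *S100b* and *Pmp22* lie far to the right, *Mbp* near 0, and *Cxcl12* and *Ctps* to the left, in both libraries, while *Il33* lies near 0 in library 2 and at 0.42 in library 1.

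The start regions of *Klk6* and *Hapln2*, the pair that went together, are shown with the 2 short motifs that were searched on both strands of RefSeq promoters (GRCm38.p6, 250 bases before to 50 after a start). ACAAAG, a core that Sox factors bind and that reads as CTTTGT on the other strand, was present in the promoters of 3 of the 8 rule genes (*Mobp*, *Mag* and *Opalin*). It was also in 4 of the 7 class-specific genes that have a promoter in the table (*Klk6*, *Gjb1*, *Lpar1* and *Ptgds*), against 18.7% of all 32851 promoters. CTGGCAC, which reads as GTGCCAG on the other strand and is a core reported for Myrf, was in 3 of the 8 rule genes (*Mag*, *Opalin* and *Hapln2*) and in *Lpar1*, against 5.01% of all promoters. A gene was counted when any of its promoters held the motif, whereas the percentages are over single promoters. Genes with several starts had more chances of a match, so the counts and the percentages are not directly comparable. *Klk6* has a second start in the table (chr7:43825200-43825499, plus strand), whose window holds neither motif. Capitals mark the match, each line reads 5′ to 3′ on the gene's strand, and a match is a description of the letters only.
Klk6, chr7:43824294-43824593, plus strand: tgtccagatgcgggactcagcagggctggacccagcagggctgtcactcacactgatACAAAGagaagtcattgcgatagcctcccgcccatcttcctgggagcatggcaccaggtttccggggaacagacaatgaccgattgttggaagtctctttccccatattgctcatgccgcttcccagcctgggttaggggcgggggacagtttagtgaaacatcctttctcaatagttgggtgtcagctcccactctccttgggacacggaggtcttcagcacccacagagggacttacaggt
Hapln2, chr3:88027462-88027761, minus strand: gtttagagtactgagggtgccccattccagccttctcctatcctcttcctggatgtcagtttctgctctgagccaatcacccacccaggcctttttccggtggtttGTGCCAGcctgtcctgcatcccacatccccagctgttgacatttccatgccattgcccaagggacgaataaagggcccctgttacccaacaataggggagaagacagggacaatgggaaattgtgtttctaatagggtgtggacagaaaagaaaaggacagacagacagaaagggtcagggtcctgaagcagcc

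*Crym* (chr7:120186380-120202111, minus strand), the astrocyte gene at the centre of the study, was low in the members. It stood at 76.0 and 40.9 CPM in all members, 17.8 and 25.03 CPM in those with 7 or 8 markers and 215 and 310.2 CPM in those with 4 to 6. The level was 1144 and 1509.7 CPM in astrocytes and 27.7 and 17.5 CPM in microglia. At 2000 UMIs it was found in 4.05% and 3.03% of members with 7 or 8 markers and in 4.84% and 3.78% of microglia. The share thus did not exceed this background. Before thinning it was 16.9% and 11.3% in those members. For all members the log2 fold change was 2.63 ± 0.27 against newly formed cells and 1.61 ± 0.30 against OPCs. Against oligodendrocytes with a high mitochondrial share it was -0.35 (adjusted p = 0.320). With each barcode thinned to 1000 UMIs, *Crym* gave 1.22 against newly formed cells (adjusted p = 0.0671) and 1.58 against OPCs (adjusted p = 0.0218). For members with 7 or 8 markers the log2 fold change was 1.33 ± 0.33 against newly formed cells and 0.43 ± 0.40 against OPCs (adjusted p = 0.00314 and 0.376). Against oligodendrocytes with a high mitochondrial share it was -1.65, and *Crym* passed the test as lower. The astrocyte list summed to 1127 and 671 CPM in all members, 404 and 546 CPM in those with 7 or 8 markers and 2859 and 2800.0 CPM in those with 4 to 6. The neuronal list summed to 538 and 320.2, 168 and 159 and 1425 and 3055 CPM in the same order, and the part of either in the level of *Crym* was not tested. With barcodes that held markers of another class removed, *Crym* gave 0.60 against newly formed cells and -0.43 against OPCs (adjusted p = 0.0998 and 0.296). It then gave -1.72 against oligodendrocytes with a high mitochondrial share (adjusted p = 0.000579).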

How the data were processed

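Striatal single-cell suspensions were profiled with 10x Genomics 3′ chemistry in 2 libraries of 1 untreated group. The authors aligned reads to mm10 and counted UMIs with Cell Ranger 4.0 per the labels and the file headers (an earlier release in the study's methods), and deposited raw UMI counts for 32285 genes per barcode, with no cell annotation. The study's own later filters and integration were not in these counts. The labels number the libraries as replicates and the study calls its replicates biological, but no label ties a library to its mice. As the library is a block in the fit, p-values do not measure the difference between the 2 libraries as such. They measure only how far the differences between groups vary from 1 library to the other, pooled over the groups of the fit.

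Members and gene lists were chosen with earlier results of these data known. Doublets were marked with Scrublet (scanpy 1.11.5) and kept. Counts were summed per library and group into 8 sums and fitted together with edgeR 4.0.16 (quasi-likelihood test, TMM, filterByExpr, Benjamini-Hochberg threshold 0.05), with the library as a block, since the groups of a library share a suspension. Mitochondrial genes were left out of library sizes, and these and all marker genes used to draw groups were left out of tests. DESeq2 1.42.0, other scalings, filters and limits were alternatives. Symbols that stand for more than 1 gene ID were not tested, and close copies (globins, *Hspa1a* and *Hspa1b*, *H2-D1* and *H2-K1*) may share reads.

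Genes were named as fixed lists with examples, as the 6 largest rises and 6 largest falls of each comparison with the same direction in both libraries and 50 CPM or more in the higher group, as the 10 genes with the largest ratio to any class outside the lineage (100 CPM or more), and as the 10 genes with the highest Fano factor. Some genes that these rules name are not reported here. Genes in the *Hapln2* division were chosen after their values were seen. A class outside the lineage was 4 or more of its markers, less than 15% mitochondrial UMIs and fewer than 4 markers of every other class. Intervals are exact at 95% and cover counting error only. The fits were also run on simulated data, whose outcome is not given here and on which no result above rests. Where a group was at 0 UMIs, a fold was taken against 3 counts over the group. Gene positions are from GENCODE on GRCm38, and promoters from RefSeq (GRCm38.p6).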

Additional observations from a re-analysis of the deposited data

How the results depend on the processing

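The share of members depended on the marker limit. In library 1 it was 33.2% with 3 or more markers, 13.5% with 5 or more, 9.97% with 7 or 8, and 8.63% without barcodes holding markers of another class, and in library 2 it was 21.6%, 16.1% with 7 or 8 and 13.8% without such barcodes. Mitochondrial limits of 10% and 20% gave 17.7% and 21.0% in library 1, the limit of 10% gave 16.8% in library 2, and 500 detected genes gave 20.7% in library 1. Against oligodendrocytes with a high mitochondrial share, thinning each barcode to 1000 UMIs, where 4103 genes were tested, left 476 genes higher and 565 lower, DESeq2 gave 918 higher, and members with 7 or 8 markers gave 2047 lower. Against newly formed oligodendrocytes thinning left 483 higher and 439 lower, and 2459 were lower without barcodes of another class and 2427 for members with 7 or 8 markers. Against OPCs thinning left 833 higher and 732 lower, and no TMM scaling gave 1469 higher and 4132 lower. Of the 10 most variable genes 2 remained without barcodes of another class.

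The library block pairs groups of the same suspension. Without the block, the counts fell to 828 higher and 636 lower against oligodendrocytes with a high mitochondrial share and to 888 and 1004 against newly formed cells, and stayed within 1.5 times against OPCs (1988 and 1984). With 1 library left out no residual degrees of freedom remain, so that only values of single genes were computed.

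Removing barcodes with markers of another class reversed 3 of the values named in a comparison: *Hmgb2* to -0.39 against oligodendrocytes with a high mitochondrial share, *Ccnd2* to -0.72 against newly formed cells and *Crym* to -0.43 against OPCs. *C1qc* and *Laptm5*, named against newly formed cells, also went from 1.47 and 1.66 to -1.88 and -1.88 against oligodendrocytes with a high mitochondrial share, and *Laptm5* from 3.53 to -0.37 against OPCs. These barcodes hold the other-class markers by construction. With DESeq2, *Car2* (adjusted p = 0.0603), *Mal* (0.165) and *Ndrg1* (0.0966) missed the threshold, the first against oligodendrocytes with a high mitochondrial share and the others against newly formed cells, where 3 cholesterol genes fell. Over the 14 alternatives with a test, 21 of 42 named genes kept direction and side of the threshold wherever they were tested in the first comparison, 31 of 41 in the second and 31 of 33 in the third, and 36, 36 and 31 of the named genes were tested in all 14. In each library alone, where there is no test, 42, 41 and 32 kept their direction.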
